A study of Mus musculus with 90 samples.

Results

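Liver complement and coagulation factors are the secreted proteins of blood clotting and of the complement cascade that hepatocytes make, and 39 of their genes were followed here by symbol. The 39 were listed as mouse symbols and matched to the Entrez identifiers of 24475 genes in 2 deposited count tables; all 39 were present in both tables and passed the filter on low counts. Of the 39, 18 belong to complement and 21 to coagulation. The libraries were made from mouse liver polyA RNA, 90 in all, in 9 groups of 10.

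The first experiment held 50 libraries. Its groups were Control, Gcgr KD, Gnas KD, PKA KD and Epac2 KD, where KD is a knockdown by a short hairpin RNA carried to the liver by adeno-associated virus 8 (AAV8-shRNA). Gcgr encodes the glucagon receptor, Gnas the stimulatory G protein alpha subunit through which it raises cyclic AMP, and PKA and Epac2 (gene Rapgef4) are separate effectors of cyclic AMP. The label PKA KD names no subunit. The second experiment held 40 libraries from mice that had Control AAV or Prkar1a KD, each with Control mAb or Gcgr mAb, an antibody against the glucagon receptor. Prkar1a encodes a regulatory subunit that holds PKA inactive, and the series describes this arm as PKA activation. The labels give no sex, age, strain, diet or dose and do not state whether the libraries are separate mice; the p-values thus reflect only how these libraries vary, which may be technical.

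Complement can start at the lectins Mbl1 and Mbl2 with their proteases Masp1 and Masp2, and passes through convertases built from C2, C4b, Cfb and C3. It ends in the membrane attack complex, of which C5 (gene Hc), C6, the C8 chains and C9 were followed here. Coagulation runs through serine proteases, several of which need vitamin K, to thrombin (F2), which turns fibrinogen (Fga, Fgb, Fgg) into fibrin. The liver is the main source of most of these plasma proteins, and several of them, fibrinogen and C3 among them, are acute-phase proteins that rise in inflammation.

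The targeted genes moved as labelled. Median Gcgr was 172 CPM (counts per M counts of a library, scaled by the trimmed mean of M-values, TMM) in Control and 44.9 in Gcgr KD, and median Gnas was 359 and 44.7 in Control and Gnas KD. In PKA KD both catalytic subunit genes were low, with medians of 9.44 for Prkaca and 8.94 for Prkacb against 95.7 and 40.4 in Control. Rapgef4 was at 8.82 in Epac2 KD against 89 in Control, and Prkar1a was at 32.8 with Prkar1a KD against 122 with Control AAV, both with Control mAb. The antibody acts on the protein, and Gcgr mRNA was at 159 with Control mAb and 153 with Gcgr mAb. Library totals ran from 20.8 to 33.7 M counts (M, mega; median 25.3) in the first experiment and from 8.9 to 19.5 M (median 16.5) in the second, and the lowest count of any member in any library was 617 and 194. The hepatocyte gene Alb had a median of 69800 CPM in Control and 57200 in Control AAV with Control mAb. The samples are bulk tissue, in which fewer cells of a type and less RNA per cell cannot be told apart.

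Promoters are shown for the fibrinogen genes, C8a with C8b, and F11 with Klkb1, which the results below set side by side, and for the gene with the only complete cyclic AMP response element. RefSeq promoters of 300 bases (GRCm38.p6, 250 bases before to 50 after a transcript start) were found for 30 of the 39 genes. Capitals mark matches, on either strand, to 6 letter strings: TGACGTCA and its part TGACG (the cyclic AMP response element, bound by CREB, whole and in part), TTGCNNAA (C/EBP), GTTAAT (part of the HNF1 site), CAAAGTCCA (HNF4) and TTCNNNGAA (STAT). The sequences read 5′ to 3′ on the strand of the gene. The first 3 are the fibrinogen genes, Fgg at chr3:83007474-83007773 (plus strand) and Fga and Fgb at chr3:83025903-83026202 (plus strand) and chr3:83049814-83050113 (minus strand).
Fgg: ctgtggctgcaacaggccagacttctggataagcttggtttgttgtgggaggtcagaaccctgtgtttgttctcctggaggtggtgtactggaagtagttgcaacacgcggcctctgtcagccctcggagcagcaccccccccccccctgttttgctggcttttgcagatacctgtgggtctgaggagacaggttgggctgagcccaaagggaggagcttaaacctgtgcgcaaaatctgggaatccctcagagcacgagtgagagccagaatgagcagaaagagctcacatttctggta
Fga: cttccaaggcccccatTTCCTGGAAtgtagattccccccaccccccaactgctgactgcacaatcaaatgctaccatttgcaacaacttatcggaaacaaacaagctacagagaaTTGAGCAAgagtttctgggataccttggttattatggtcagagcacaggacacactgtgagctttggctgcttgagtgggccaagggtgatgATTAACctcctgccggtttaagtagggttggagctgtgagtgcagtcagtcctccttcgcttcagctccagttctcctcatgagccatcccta
Fgb: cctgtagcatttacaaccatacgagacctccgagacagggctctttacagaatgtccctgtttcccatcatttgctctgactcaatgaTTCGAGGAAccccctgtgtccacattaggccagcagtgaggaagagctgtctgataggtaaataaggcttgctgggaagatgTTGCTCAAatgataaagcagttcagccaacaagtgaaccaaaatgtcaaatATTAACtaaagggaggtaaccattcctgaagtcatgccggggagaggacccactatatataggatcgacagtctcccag
Fgg held 0 of the strings, while Fga and Fgb each held 1 C/EBP, 1 HNF1 and 1 STAT match, with the C/EBP match beginning at -135 in Fga and -80 in Fgb, and the HNF1 match at -43 and -29, counted from the transcript start. The C8 alpha and beta chain genes, at chr4:104876349-104876648 (minus strand) and chr4:104766067-104766366 (plus strand), both held the HNF1 string.
C8a: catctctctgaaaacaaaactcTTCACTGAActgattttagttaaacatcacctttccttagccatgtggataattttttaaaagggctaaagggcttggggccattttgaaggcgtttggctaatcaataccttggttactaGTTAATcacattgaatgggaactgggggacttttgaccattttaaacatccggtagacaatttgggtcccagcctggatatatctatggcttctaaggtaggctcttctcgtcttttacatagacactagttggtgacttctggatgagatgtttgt
C8b: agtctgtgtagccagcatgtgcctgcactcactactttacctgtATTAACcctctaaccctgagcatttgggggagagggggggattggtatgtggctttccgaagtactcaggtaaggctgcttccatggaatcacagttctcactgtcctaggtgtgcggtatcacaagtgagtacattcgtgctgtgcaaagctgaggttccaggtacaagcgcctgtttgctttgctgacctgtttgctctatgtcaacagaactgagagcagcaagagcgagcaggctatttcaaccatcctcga
The neighbours F11 and Klkb1, which encode the related zymogens factor XI and plasma prekallikrein, lie at chr8:45261982-45262281 and chr8:45294786-45295085, both on the minus strand, and each held 1 C/EBP match.
F11: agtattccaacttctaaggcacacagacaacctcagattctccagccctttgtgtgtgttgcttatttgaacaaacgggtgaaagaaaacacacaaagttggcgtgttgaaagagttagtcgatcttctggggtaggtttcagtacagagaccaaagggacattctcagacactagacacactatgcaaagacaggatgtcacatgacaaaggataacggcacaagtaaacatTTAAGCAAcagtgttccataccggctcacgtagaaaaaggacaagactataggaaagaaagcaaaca
Klkb1: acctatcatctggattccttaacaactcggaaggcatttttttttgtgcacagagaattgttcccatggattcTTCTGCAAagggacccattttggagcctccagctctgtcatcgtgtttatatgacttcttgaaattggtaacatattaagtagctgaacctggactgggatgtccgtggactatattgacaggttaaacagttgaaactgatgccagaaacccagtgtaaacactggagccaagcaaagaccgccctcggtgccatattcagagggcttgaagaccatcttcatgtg
Cpb2, the carboxypeptidase that slows clot lysis, lies at chr14:75242037-75242336 on the plus strand.
Cpb2: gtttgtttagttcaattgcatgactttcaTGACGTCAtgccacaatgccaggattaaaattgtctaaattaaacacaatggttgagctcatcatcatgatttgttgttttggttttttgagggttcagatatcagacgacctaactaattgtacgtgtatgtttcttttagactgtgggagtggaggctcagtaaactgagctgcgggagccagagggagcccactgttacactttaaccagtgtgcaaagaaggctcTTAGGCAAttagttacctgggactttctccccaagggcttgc
The whole cyclic AMP response element was in Cpb2 alone of the 30 members and in 1.79% of 32851 RefSeq promoters of this length. Its partial string was in 7 members (20.8% of all promoters), C/EBP in 9 (10.8%), the HNF1 string in 10 (7.1%), STAT in 7 (8.3%) and HNF4 in 0 (0.475%). A match is a string in this window and not a shown binding site.

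Some members lay close together on the genome. In GRCm38.p6, Cfb ends 87 bases from C2 on chromosome 17, C8b and C8a are 11130 bases apart on chromosome 4, and Fgg, Fga and Fgb follow each other on chromosome 3 with gaps of 11096 and 8618 bases. F7, F10 and Proz lie in a row on chromosome 8 with gaps of 1498 and 3907 bases, and F11 and Klkb1 are 4632 bases apart on the same chromosome. In GENCODE, exons of C2 and Cfb also belong to Gm20547 on the same strand, and exons of Klkb1 to Gm45753. C4b has a near-identical copy, C4a, and Kng1 has Kng2. How reads shared by such genes were counted is not given in the sources used here, so values of C2, Cfb, C4b, Kng1 and Klkb1 are less certain than the others.

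Levels spanned a wide range in control livers. On the scale of median CPM per kilobase of exon in Control, C3 led at 1390, followed by Fga at 1200, Fgg at 982, Fgb at 899 and Vtn, the adhesive plasma protein vitronectin, at 868. Pros1 (protein S, a cofactor of activated protein C) was lowest at 9.02, below Masp1 at 11.4 and C2 at 15. The length used joins all annotated exons of a gene and can exceed that of its mRNA, which lowers such values. Before division by length, Masp1 had a median of 113 CPM and C2 of 57.9. In Control AAV with Control mAb the same 3 were lowest, Masp1 at 4.91, C2 at 13.4 and Pros1 at 14.9. Summed over the members, complement had a median of 1.62% of all TMM-scaled counts in Control and coagulation 2.08%, of which fibrinogen was 0.916%. With Control AAV and Control mAb these were 1.1%, 1.67% and 0.7%.

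The changes below are log2 fold changes with standard errors from edgeR's quasi-likelihood test, fitted to all tested genes of an experiment (13574 and 12847), with Benjamini-Hochberg adjusted p-values. Genes with an adjusted p below 0.05 were called.

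**Figure D1:**
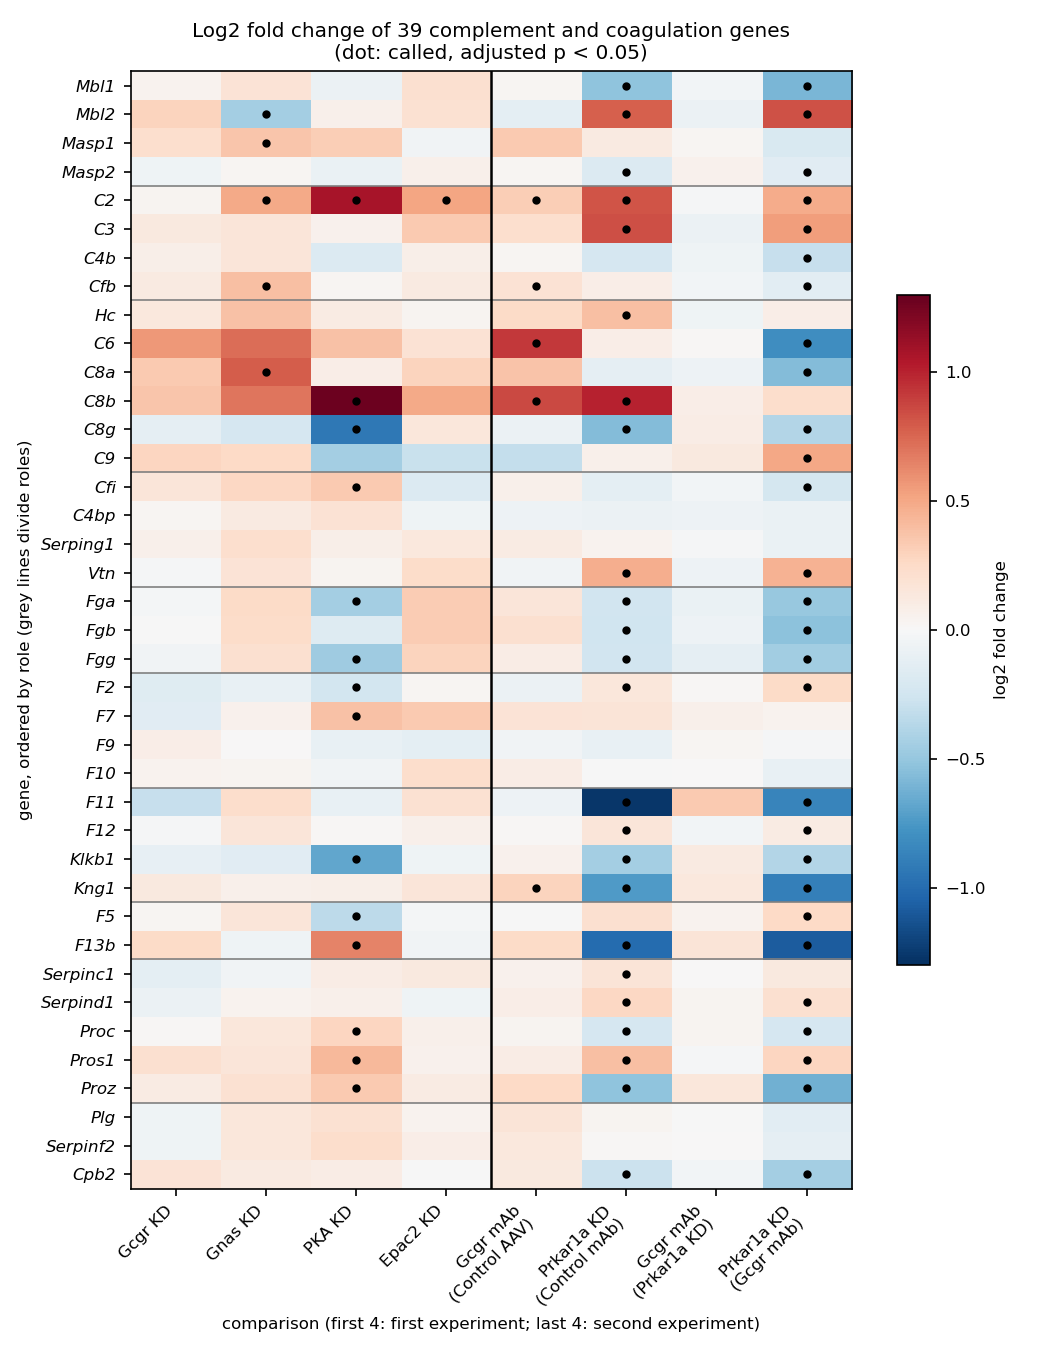
Log2 fold change of the 39 genes (rows, ordered by role, with grey lines between roles) in 8 comparisons (columns), red for higher and blue for lower, with a dot where the gene was called. PKA KD has 14 dots and the columns of Prkar1a KD have 24 (Control mAb) and 28 (Gcgr mAb), while Gcgr KD and Gcgr mAb in Prkar1a KD have 0.

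Blocking the glucagon receptor left most of the 39 genes without a call. With Gcgr KD, 0 members were called by edgeR, against 2.9% of all tested genes called higher and 4.33% called lower. At an unadjusted p below 0.05, 4 members and 2918 of all 13574 tested genes passed. By DESeq2, 0 members were called. The lowest adjusted p was 0.0788, for F13b, the carrier subunit of the clot-linking factor XIII, at 0.25 ± 0.09 (SE). F13b ran from 133 to 196 CPM in Control (median 155) and from 162 to 227 in Gcgr KD (median 193), and 10 of 10 knockdown libraries exceeded the Control median. Pros1 stood at 0.21 ± 0.075 with an adjusted p of 0.0843, again with 10 of 10 libraries above the Control median. When only these 2 groups were fitted, 3 members were called higher, Mbl2, F13b and Pros1.

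With Gcgr mAb in Control AAV livers, 5 members rose and 0 fell, against 2.92% and 5.27% of all tested genes. They were C6, C8b, C2, Cfb and Kng1. C6, a membrane attack complex protein, ran from 76.6 to 204 CPM with Control mAb (median 108) and from 104 to 342 with Gcgr mAb (median 242), with the ranges overlapping. The change of C6 was 0.92 ± 0.21 (adjusted p = 0.00347), with 9 of 10 libraries above the control median. C8b ran from 45.8 to 167 CPM (median 66.2) and from 98.6 to 261 (median 140), a change of 0.86 ± 0.2 (adjusted p = 0.0044; 0.0523 with only these 2 groups fitted), and 10 of 10 antibody libraries passed the control median. The other rises were smaller and tight. Kng1, the precursor of bradykinin, ran from 1350 to 1810 CPM (median 1590) and from 1730 to 2080 (median 1930), a change of 0.29 ± 0.055 (adjusted p = 0.000481). C2, the protease of the classical and lectin convertase, was at 0.32 ± 0.072 (adjusted p = 0.00283), and Cfb, the matching protease of the alternative pathway, at 0.19 ± 0.048 (adjusted p = 0.00793). Without library 2 of Control AAV with Gcgr mAb, the library least like its group, 10 members were called higher, with Hc, F13b, Proz, Plg and Cpb2 added. Of the cell markers, Adgre1 (1 of 8 Kupffer cell markers) and Stab2 (1 of 8 endothelial markers) rose with the antibody by 0.81 ± 0.26 and 0.62 ± 0.16, and Ass1 (1 of 7 hepatocyte markers) and Alas2 (1 of 3 erythroid markers) were at -0.97 ± 0.27 and -0.75 ± 0.2. Of the acute-phase genes, Orm3 and Hamp rose with the antibody by 1.34 ± 0.3 and 1.05 ± 0.24. Serpina3n and Cp rose by 0.45 ± 0.077 and 0.4 ± 0.081, and none of that list was called lower. The part of these markers and acute-phase genes was not tested.

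Among complement genes outside the 39, Gcgr KD and Gcgr mAb had calls in common as well as a difference in sign. Of 29 such genes tested, 3 rose and 2 fell with Gcgr KD, and of 28 tested, 4 rose and 2 fell with Gcgr mAb. The fall of Cpn1, a carboxypeptidase that trims anaphylatoxins, was 0.26 ± 0.059 on the log2 scale with Gcgr KD (adjusted p = 0.00285) and 0.32 ± 0.049 with Gcgr mAb (adjusted p = 1.56e-05). Cfd, the adipsin protease that activates Cfb and is made mainly in fat, was at -1.91 ± 0.53 with Gcgr KD (adjusted p = 0.0171) and at 1.35 ± 0.38 with Gcgr mAb (adjusted p = 0.0198). C1ra, a classical pathway protease, rose by 0.53 ± 0.069 with Gcgr mAb. C5ar1, an anaphylatoxin receptor of immune cells, rose by 0.94 ± 0.26 with Gcgr KD, as did C1s1 at 0.34 ± 0.056 and the clusterin gene Clu at 0.31 ± 0.091. Of other coagulation genes, the thrombin receptor gene F2r rose by 0.45 ± 0.13 with Gcgr KD and by 0.69 ± 0.12 with Gcgr mAb. Tfpi2, a Kunitz protease inhibitor, changed by -0.65 ± 0.11 with the antibody, and Itih3, an inter-alpha-trypsin inhibitor heavy chain, by 0.4 ± 0.11.

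With Gnas KD, 4 members rose and 1 fell, all of them complement genes. The median change was 0.24 over the 18 complement members and 0.14 over the 21 coagulation members, and the difference between these sets was not tested. Of all tested genes 6.83% were called higher and 8.32% lower, so the members' share of calls, both directions together, was near that of all genes. The median change over all tested genes was 0.01. Mbl2, the mannose-binding lectin, fell from a range of 385 to 616 CPM in Control (median 512) to 237 to 469 (median 384). The change of Mbl2 was -0.45 ± 0.12 (adjusted p = 0.00783), and 10 of 10 libraries lay below the Control median although the ranges overlapped. C2 ran from 53.2 to 76 CPM in Control (median 57.9) and from 54.9 to 122 with Gnas KD (median 84.9), a rise of 0.49 ± 0.12 (adjusted p = 0.00269). Its neighbour Cfb ran from 1070 to 1190 (median 1150) and from 1050 to 2110 (median 1480), a rise of 0.39 ± 0.089 (adjusted p = 0.00164). For both genes 9 of 10 libraries exceeded the Control median. C8a, a chain of the complement C8 protein, ran from 259 to 770 CPM in Control (median 454) and from 446 to 1300 (median 789), a rise of 0.79 ± 0.25 (adjusted p = 0.0237). Masp1 was just inside the threshold at 0.36 ± 0.13 (adjusted p = 0.0495).

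Acute-phase genes moved in the same libraries. Of 24, 8 rose and 1 fell with Gnas KD, led by Saa1 at 2.65 ± 0.8 and Saa2 at 2.6 ± 0.83, near-identical serum amyloid genes, and Lcn2, an iron-scavenging protein, at 2.29 ± 0.59. Library 8 of Gnas KD held 2820 CPM of Saa1, against a median of 131 in its group. Without it, C8a stood at 0.68 with an adjusted p of 0.0571 (0.0106 to 0.0571 over 9 alternatives) and Masp1 at 0.28 with an adjusted p of 0.131 (0.0304 to 0.131 over 9), so 3 of the 5 calls remained, those of Mbl2, C2 and Cfb. Stellate cell markers rose as well, 4 of 8 with 0 lower, and the summed list ran from 318 to 768 CPM (median 570) against 261 to 500 (median 360) in Control. Of 5 cholangiocyte markers 2 rose, Sox9 at 0.6 ± 0.19 and Spp1 at 1.45 ± 0.46, with summed ranges of 54.5 to 261 CPM and, in Control, 27.9 to 102. Of 7 hepatocyte markers 2 fell, Hnf4a at -0.17 ± 0.054 and Ass1 at -0.62 ± 0.19, with summed ranges of 67900 to 99500 CPM and 82600 to 113000. Their part in the member calls was not tested.

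Of the other complement genes, 4 rose and 3 fell with Gnas KD; C5ar1 was at 0.99 ± 0.26, Clu at 0.61 ± 0.091, C1ra at 0.5 ± 0.12, Cfd at -2.21 ± 0.53, C1rl at -0.24 ± 0.061 and Cpn1 at -0.22 ± 0.059. Of 31 other coagulation genes, 3 rose and 2 fell, among them F2r at 0.59 ± 0.13, Itih3 at 0.64 ± 0.21, the thrombomodulin gene Thbd at 0.54 ± 0.15, Tfpi2 at -0.5 ± 0.1 and Vkorc1l1, a vitamin K reductase, at -0.33 ± 0.071.

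**Figure D2:**
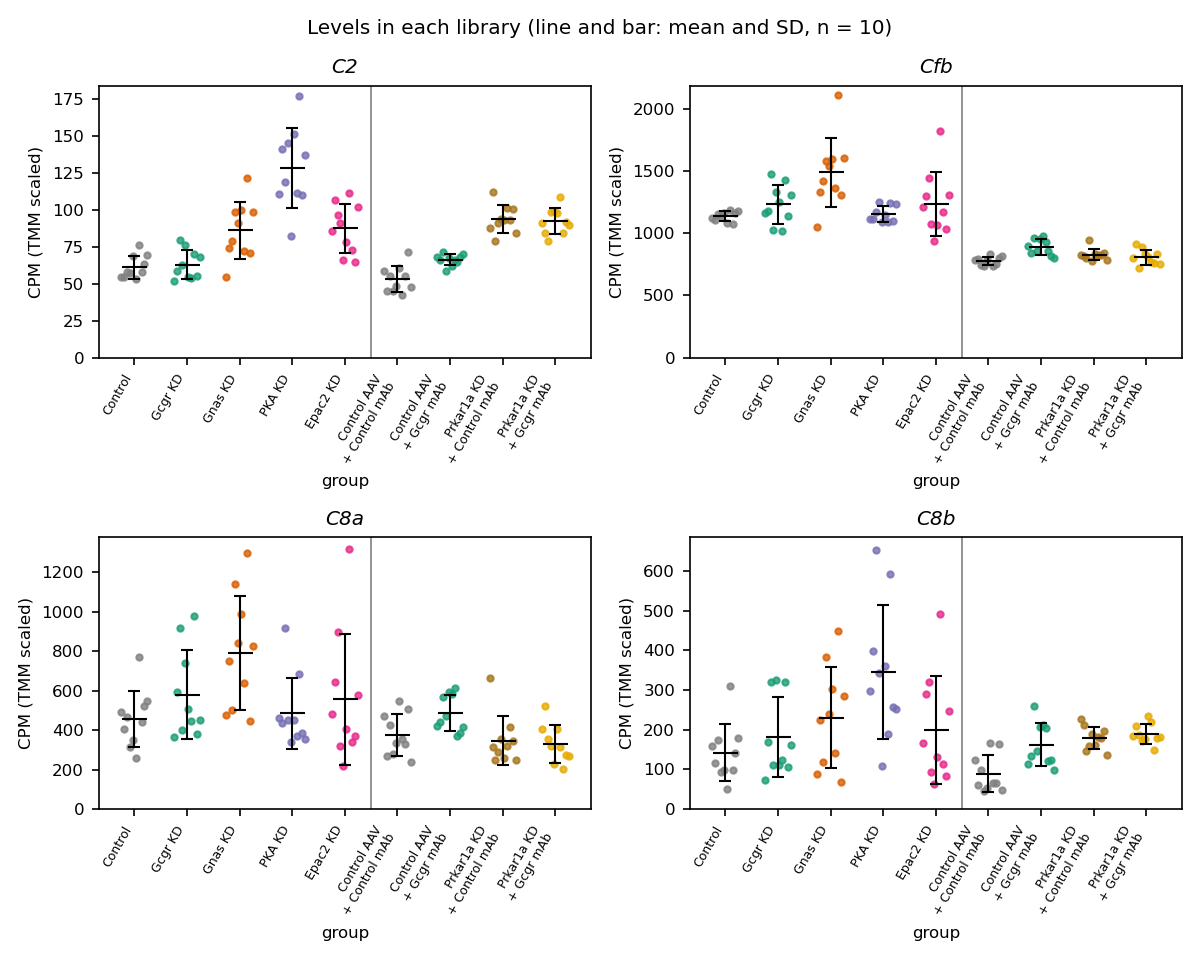
CPM (TMM scaled) of C2, Cfb, C8a and C8b in each of the 90 libraries by group, with the mean and SD of 10 libraries as a line and bar and a vertical line between the experiments. The PKA KD libraries hold 82.1 to 177 CPM of C2, all above the Control range of 53.2 to 76, while their Cfb range of 1090 to 1250 overlaps that of Control.

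With PKA KD, 8 of 39 members rose and 6 fell. Of all tested genes, 17.7% were called higher and 14.8% lower, so the members' share of calls was near that of all genes. The median change was 0.07 over the members and 0.01 over all tested genes. Complement members contributed 3 rises and 1 fall, and coagulation members 5 rises and 5 falls.

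C2 rose most clearly, from 53.2 to 76 CPM in Control to 82.1 to 177 with PKA KD (median 128), with no overlap. The change of C2 was 1.07 ± 0.12 (adjusted p = 2.96e-10). Cfb, which ends 87 bases away, was at 1070 to 1190 CPM and 1090 to 1250, a change of 0.02 ± 0.089 that did not pass (adjusted p = 0.873). C3, the shared substrate of the convertases, was likewise not called, at 7150 CPM in Control and 7300 with PKA KD as medians.

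The C8 chains parted. C8b ran from 51.2 to 309 CPM in Control (median 129) and from 108 to 654 with PKA KD (median 319), a rise of 1.28 ± 0.36 (adjusted p = 0.0051) with 9 of 10 libraries above the Control median. C8g, the lipocalin chain of the same protein, fell from 156 to 252 CPM (median 212) to 89.3 to 145 (median 104), with no overlap, by 0.93 ± 0.11 on the log2 scale (adjusted p = 2.6e-09). C8a had medians of 454 and 445 CPM and was not called. Among complement regulators Cfi, the protease that cuts C3b and C4b, rose by 0.34 ± 0.099 (adjusted p = 0.00633).

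On the coagulation side, 2 of 3 fibrinogen genes fell, and 1 of 4 contact system genes, Klkb1. Fga ran from 3140 to 4990 CPM in Control (median 3600) and from 2210 to 3280 with PKA KD (median 2890), a change of -0.44 ± 0.16 (adjusted p = 0.0279). Fgg ran from 1750 to 2780 (median 2060) and from 1170 to 2580 (median 1540), a change of -0.46 ± 0.16 (adjusted p = 0.0265). Fgb was at medians of 3420 and 3140 and was not called. The fibrinogen calls were close to the threshold. Without Control library 7 the adjusted p was 0.0602 for Fga and 0.0549 for Fgg, and without PKA KD library 5 it was 0.0501 and 0.0502. Over 9 alternatives it ran from 0.000954 to 0.0602 for Fga and from 0.00504 to 0.0549 for Fgg.

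Klkb1 fell from 124 to 215 CPM (median 173) to 75 to 128 (median 108), by 0.68 ± 0.11 on the log2 scale (adjusted p = 1.01e-06), and 10 of 10 libraries were below the Control median. F5, the cofactor of the prothrombin-cleaving complex, fell by 0.34 ± 0.081 and F2 by 0.24 ± 0.078. F13b rose from 133 to 196 CPM (median 155) to 167 to 338 (median 256), by 0.65 ± 0.091 (adjusted p = 9.13e-08). F7, the tissue factor partner, was at 0.38 ± 0.14 (adjusted p = 0.0348; 0.0077 to 0.0556 over 9 alternatives).

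Among the 5 anticoagulant genes, 3 rose and 0 fell. Pros1 ran from 30.6 to 42 CPM in Control and from 43 to 55.6 with PKA KD, with no overlap, a rise of 0.42 ± 0.075 (adjusted p = 1.02e-05). Proz, the cofactor that directs the inhibitor of factor Xa, rose by 0.34 ± 0.091 and Proc, the protein C zymogen, by 0.28 ± 0.092. Serpina10, that inhibitor's own gene and no member, fell by 0.87 ± 0.12 (adjusted p = 9.77e-08). The fibrinolysis genes Plg, Serpinf2 and Cpb2 were not called.

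Library 3 of PKA KD stood far above its group for 8 members by the outlier check given below. Among them was C9, at 708 CPM against a group median of 173. Without it the changes of C2, C8b, Fga and Fgg were 1.08, 1.13, -0.46 and -0.57, all called.

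Markers of other cell types moved in the same comparison. Of 7 hepatocyte markers 3 fell and 0 rose, Ass1 at -0.99 ± 0.19, Apob at -0.46 ± 0.085 and Hnf4a at -0.22 ± 0.054, with summed ranges of 82600 to 113000 CPM in Control and 63200 to 95200 with PKA KD. Of 5 cholangiocyte markers 2 rose, Sox9 at 0.58 ± 0.19 and Spp1 at 1.25 ± 0.46, with summed ranges of 27.9 to 102 CPM and 37.8 to 310. Lyve1 fell by 0.93 ± 0.25 on the log2 scale, 1 of 8 endothelial markers, and Alas2 rose by 0.57 ± 0.16, 1 of 3 erythroid markers. Their part in the member calls was not tested.

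In the related lists, PKA KD raised 5 and lowered 3 of 29 other complement genes and raised 6 and lowered 3 of 31 other coagulation genes. C1ra rose by 0.85 ± 0.12, Cpn2 by 0.42 ± 0.12 and Clu by 0.32 ± 0.091, while Cfd was at -3.75 ± 0.59, Cpn1 at -0.21 ± 0.059 and C1rl at -0.17 ± 0.061. The receptors F2rl1 and F2r rose by 1.59 ± 0.46 and 0.87 ± 0.14 and the plasminogen receptor gene Plgrkt by 0.62 ± 0.13, and Tfpi2 and Vkorc1l1 fell by 1.24 ± 0.11 and 0.48 ± 0.072. Acute-phase genes had 6 rises and 2 falls of 24, led by Apcs at 1.81 ± 0.29 and Orm3 at 1.81 ± 0.28, with Serpina3n at 0.51 ± 0.14, Il1rn at -0.86 ± 0.31 and Crp at -0.42 ± 0.068. Of 26 liver regulators, 2 rose and 6 fell, with Foxa1 at 0.59 ± 0.17, Foxa3 at -0.8 ± 0.17, Esr1 at -0.77 ± 0.16 and the growth hormone receptor gene Ghr at -0.7 ± 0.08.

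Epac2 KD moved C2 and no other member. C2 ran from 64.9 to 111 CPM (median 88.4), above the Control median in 10 of 10 libraries, a rise of 0.51 ± 0.12 (adjusted p = 0.0037; 0.00103 to 0.0109 over 8 alternatives). Of all tested genes, 1.82% were called higher and 2.74% lower. At an unadjusted p below 0.05, 7 members and 2255 of all 13574 tested genes passed. Library 7 of Epac2 KD carried 2180 CPM of Saa1 against a group median of 25.3. By the outlier check given below, that library stood far above its group for 8 members. Among them was Fga, at 11000 CPM against a median of 4150. Without that library C2 stood at 0.47 (adjusted p = 0.0109). Of 7 hepatocyte markers 1 fell, Apoa1 at -0.52 ± 0.12, and of 5 cholangiocyte markers 1 rose; their part was not tested. Of the related lists, 0 of 29 other complement genes were called by edgeR, and of the coagulation list the cargo receptor gene Lman1, which carries factors V and VIII out of the endoplasmic reticulum, fell by 0.73 ± 0.076. Orm3 was the only acute-phase gene called, at 1.81 ± 0.28. Against the same Control libraries, Orm3 was also called with Gcgr KD (1.98 ± 0.28), Gnas KD (1.77 ± 0.28) and PKA KD (1.81 ± 0.28). In Epac2 KD minus Gcgr KD it was at -0.17 ± 0.26 and not called.

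Set against one another, the knockdowns differed in named members. Gnas KD minus Gcgr KD called 1 member higher and 2 lower (all tested genes 2.37% and 3.47%), and Mbl2 did not overlap, at 237 to 469 CPM against 477 to 697, a difference of -0.74 ± 0.12 (adjusted p = 1.86e-05). C2 was higher by 0.45 ± 0.12 and F13b lower by 0.31 ± 0.09. PKA KD minus Gcgr KD called 8 higher and 7 lower (17.3% and 14.4%), among them C2 at 1.03 ± 0.12 and C8g at -0.81 ± 0.11, whose ranges did not overlap. Epac2 KD minus Gcgr KD called 4 higher and 3 lower (11.1% and 9.72%), with F11 at 0.5 ± 0.18, F7 at 0.48 ± 0.14, C2 at 0.48 ± 0.12 and the antithrombin gene Serpinc1 at 0.26 ± 0.071 higher, and Cfi, F13b and F9 lower. The call of F11 was lost in 4 of 8 alternatives (adjusted p = 0.0402; 0.0247 to 0.0896). PKA KD minus Gnas KD called 4 higher and 10 lower (18.4% and 15.6%). Here F13b was at 0.71 ± 0.091, C2 at 0.58 ± 0.12, Mbl2 at 0.51 ± 0.12, C8a at -0.7 ± 0.25, Fga at -0.69 ± 0.16, Fgg at -0.67 ± 0.16 and Cfb at -0.37 ± 0.089. C8a was lost without library 8 of Gnas KD (adjusted p = 0.0248; 0.00626 to 0.0608 over 10 alternatives). These comparisons share libraries with those against Control.

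**Figure D3:**
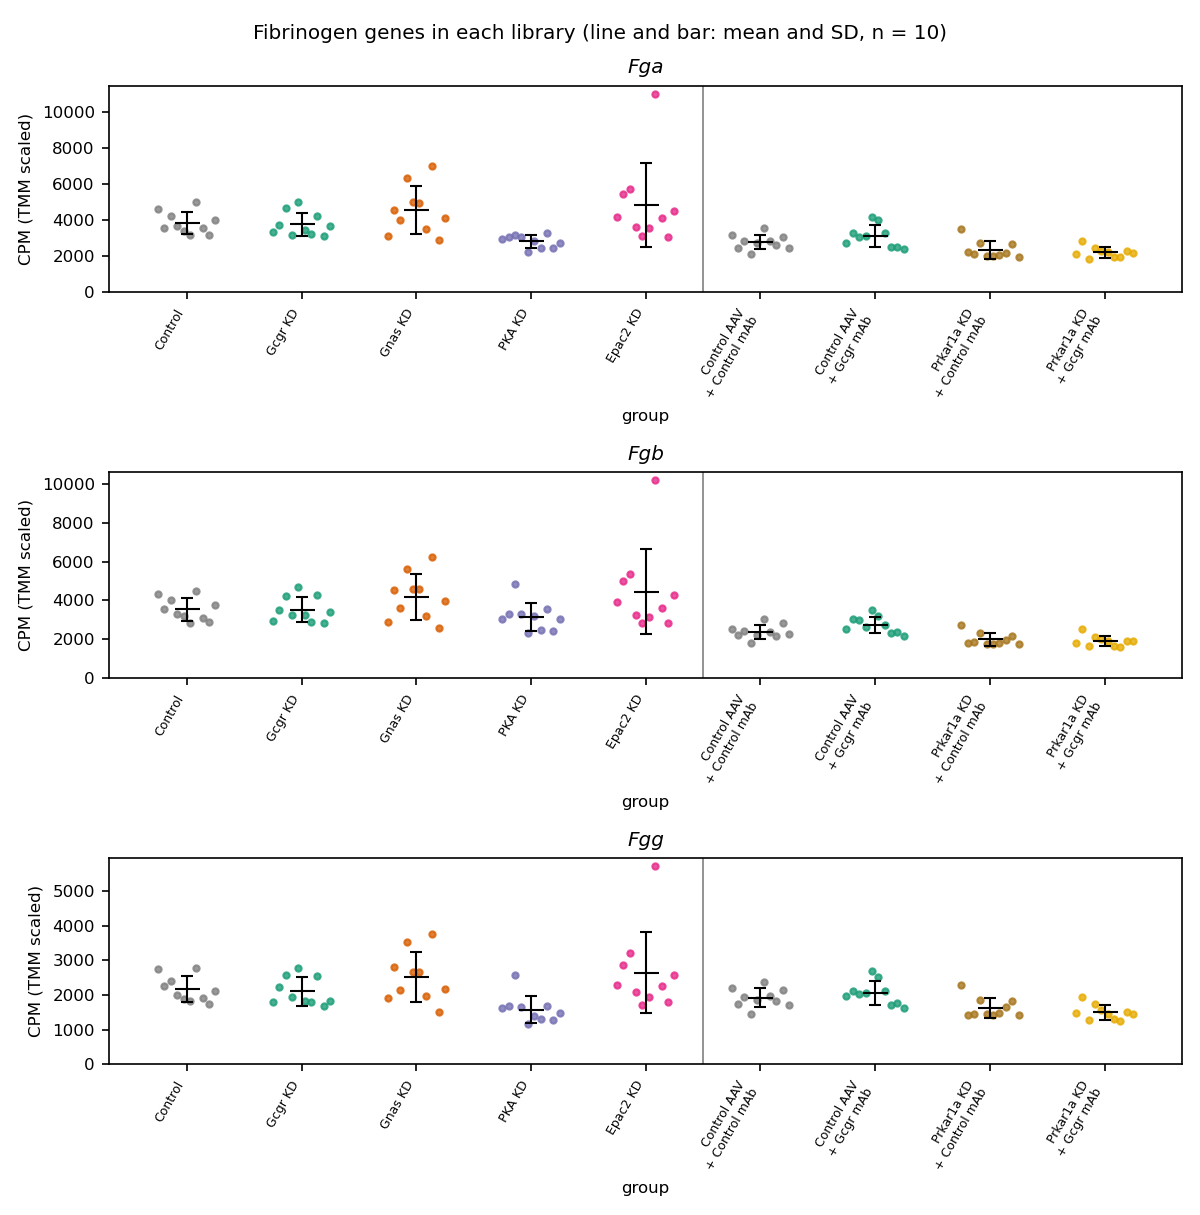
CPM (TMM scaled) of Fga, Fgb and Fgg in each library by group, with the mean and SD of 10 libraries as a line and bar and a vertical line between the experiments. In Epac2 KD, 1 library stands at 11000 CPM of Fga above a group median of 4150, and the groups with Prkar1a KD have medians of 2130 and 2190 against 2770 and 3080 with Control AAV.

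Prkar1a KD changed the most members: with Control mAb, 11 rose and 13 fell. The background was as broad, with 29.3% of all tested genes called higher and 26.9% lower. The median change was 0.01 over the members and 0.02 over all tested genes. By set, complement had 6 rises and 3 falls of 18, and coagulation 5 rises and 10 falls of 21. The summed complement share ran from 0.969% to 1.4% of scaled counts with Control AAV (median 1.1%) and from 1.36% to 1.87% with Prkar1a KD (median 1.5%). C3 was the largest single part of this sum, with medians of 3590 and 6730 CPM, so the sum mainly follows C3. The coagulation share had medians of 1.67% and 1.5%.

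The lectins moved in opposite directions. Mbl2 rose from 318 to 640 CPM (median 438) to 535 to 861 (median 779), by 0.78 ± 0.1 (adjusted p = 3.05e-08), and 10 of 10 libraries passed the control median. Mbl1 fell from 119 to 161 CPM (median 144) to 79.9 to 113 (median 99.7), with no overlap, by 0.52 ± 0.091 on the log2 scale (adjusted p = 5.58e-06). Masp2 fell by 0.17 ± 0.062.

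C3 and C2 rose without overlap. C3 ran from 3100 to 5370 CPM with Control AAV (median 3590) and from 5980 to 8340 with Prkar1a KD (median 6730), a rise of 0.84 ± 0.1 (adjusted p = 3.2e-09). C2 ran from 42.4 to 71.3 (median 51.7) and from 78.9 to 112 (median 93), a rise of 0.82 ± 0.072 (adjusted p = 1.33e-12). Cfb and C4b were not called. Vtn, which also blocks the membrane attack complex, ran from 1110 to 1590 CPM and from 1740 to 2170, a rise of 0.48 ± 0.069 (adjusted p = 1.97e-07), with no overlap.

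In the terminal pathway C8b rose from 45.8 to 167 CPM (median 66.2) to 137 to 226 (median 180), by 1 ± 0.2 (adjusted p = 5.36e-05), and Hc by 0.39 ± 0.098. C8g fell from 256 to 384 CPM (median 281) to 150 to 252 (median 202), with no overlap, by 0.56 ± 0.1 on the log2 scale (adjusted p = 1.39e-05). C6, C8a and C9 were not called.

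The largest falls were in coagulation. F11 ran from 36.6 to 90.9 CPM with Control AAV (median 49.9) and from 15.9 to 28.3 with Prkar1a KD (median 24.4), with no overlap and a change of -1.27 ± 0.17 (adjusted p = 4.75e-08). F13b ran from 100 to 210 (median 182) and from 78.7 to 97.3 (median 86), a change of -1 ± 0.098 (adjusted p = 2.39e-11), again with no overlap. Kng1 ran from 1350 to 1810 (median 1590) and from 842 to 1080 (median 923), a change of -0.73 ± 0.055 (adjusted p = 1.86e-14), with no overlap.

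Klkb1, beside F11, changed by -0.44 ± 0.11 (adjusted p = 0.000594) with 10 of 10 libraries below the control median. F12, which starts the contact system, was at 0.16 ± 0.045 (adjusted p = 0.00229). All 3 fibrinogen genes were slightly lower: Fga at -0.25 ± 0.11, Fgb at -0.26 ± 0.095 and Fgg at -0.24 ± 0.097, with adjusted p-values of 0.0465, 0.021 and 0.0305. Without the filter on low counts, Fga and Fgg were not called (adjusted p = 0.0747 and 0.0524). F2 was at 0.15 ± 0.048.

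The anticoagulants divided. Pros1 rose from 55.2 to 65 CPM to 69.3 to 88.1, with no overlap, by 0.39 ± 0.059 (adjusted p = 4.95e-07). Serpind1, heparin cofactor II, rose by 0.27 ± 0.063 and Serpinc1 by 0.17 ± 0.059. Proz fell from 123 to 233 CPM (median 198) to 119 to 154 (median 134), by 0.52 ± 0.089 on the log2 scale (adjusted p = 3.94e-06), and Proc fell by 0.22 ± 0.066. Cpb2 ran from 248 to 282 CPM and from 185 to 243, with no overlap, a change of -0.28 ± 0.054 (adjusted p = 3.78e-05).

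**Figure D4:**
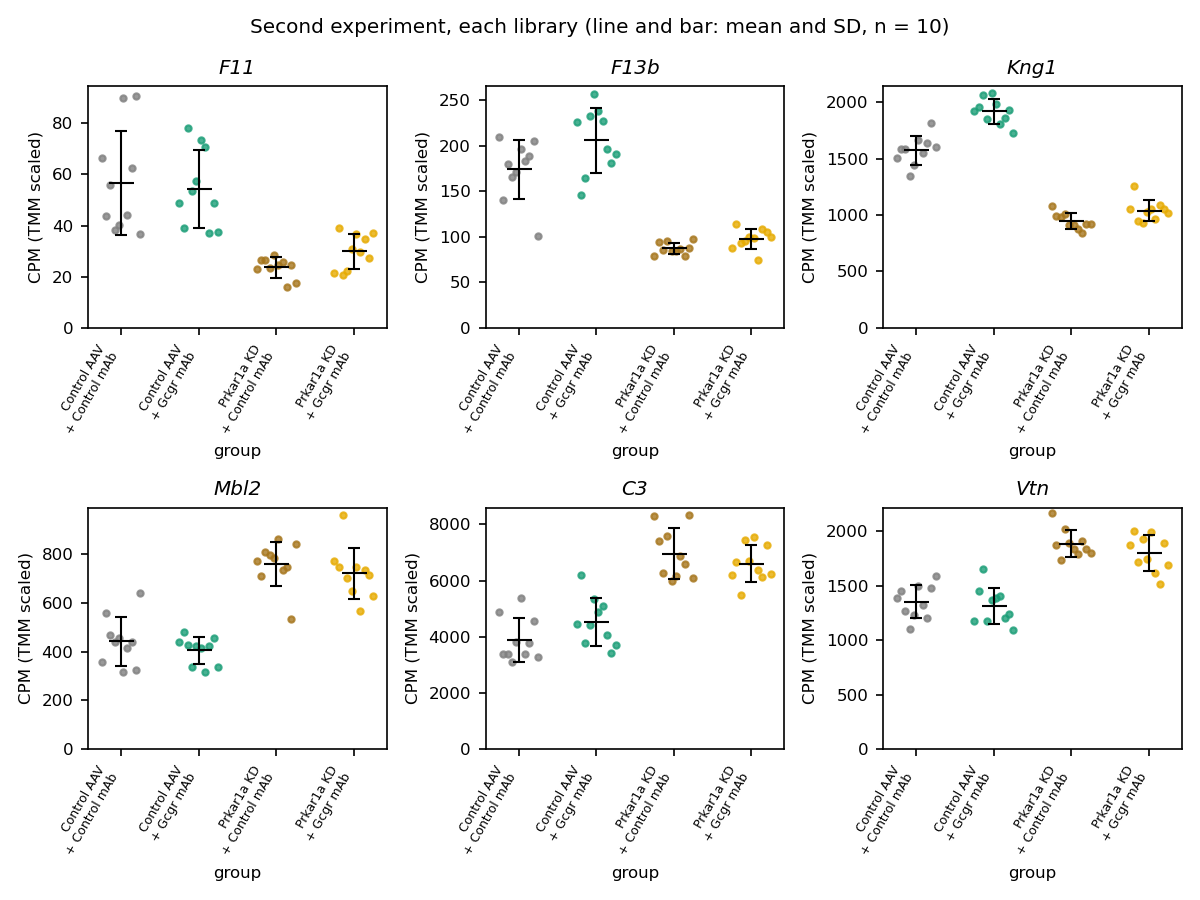
CPM (TMM scaled) of F11, F13b, Kng1, Mbl2, C3 and Vtn in each of the 40 libraries of the second experiment by group, with the mean and SD of 10 libraries as a line and bar. F11, F13b and Kng1 are lower and Mbl2, C3 and Vtn higher in the groups with Prkar1a KD; F11 has medians of 24.4 and 30.2 CPM there against 49.9 and 51.2 with Control AAV.

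Other liver genes moved beside them. Of 7 hepatocyte markers tested, 3 rose and 4 fell with Prkar1a KD. Cps1 rose by 1.39 ± 0.14, Ass1 by 0.925 ± 0.27 and Hnf4a by 0.774 ± 0.066. Apoa1, Ttr and Alb fell by 1.87 ± 0.11, 1.76 ± 0.13 and 1.44 ± 0.12 on the log2 scale. The summed hepatocyte list, mostly Alb with Control AAV, ran from 74200 to 83200 CPM there and from 31800 to 45900 with Prkar1a KD. The 3 erythroid markers fell, with a summed median of 781 CPM against 155, and 3 of 8 stellate cell, 2 of 8 endothelial, 1 of 8 Kupffer cell and 1 of 5 cholangiocyte markers were lower, while 1 of 4 neutrophil and 1 of 3 platelet markers tested were higher. None of the 7 hepatocyte and 8 Kupffer cell markers was at 0 in a whole group. Their part in the member calls was not tested.

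Acute-phase genes divided too, with 8 of 24 higher and 11 lower: Hamp rose by 1.94 ± 0.24, Il1rn by 1.35 ± 0.28 and Hpx by 0.91 ± 0.13, while Orm1 and Saa2 were at -3.04 ± 0.39 and -2.3 ± 0.37 and Orm3 had a median of 6.84 CPM with Control AAV and 0 with Prkar1a KD. Other complement genes had 3 rises and 8 falls of 28. Cfd, at a median of 3.28 CPM with Control AAV and 0 with Prkar1a KD, was lowest, and C4a fell by 1.33 ± 0.31 on the log2 scale. Itgam and Itgax, chains of the leukocyte receptors for C3 fragments, rose by 1.14 ± 0.33 and 1.08 ± 0.42, and Clu by 0.17 ± 0.059. Other coagulation genes had 5 rises and 12 falls of 29. Itih2, a heavy chain that binds hyaluronan, rose by 1.81 ± 0.086, Itih3 by 0.89 ± 0.11 and Itih4 by 0.6 ± 0.099, and Tfpi2 and F2r fell by 1.46 ± 0.11 and 1.29 ± 0.13. Of 26 regulators 8 rose and 7 fell, among them Foxa3 at 1.31 ± 0.09, Socs3 at 0.97 ± 0.4, Prox1 at 0.94 ± 0.18, Ghr at -0.53 ± 0.12, Foxa1 at -0.49 ± 0.13 and Nr1h4 at -0.44 ± 0.076.

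With Gcgr mAb in the background, Prkar1a KD gave 10 rises and 18 falls, against 26.5% and 26.6% of all tested genes. F13b, F11 and Kng1 were again low. Kng1 ran from 1730 to 2080 CPM with Control AAV and from 931 to 1250 with Prkar1a KD, with no overlap and a change of -0.89 ± 0.056 (adjusted p = 6.39e-17). F13b ran from 146 to 257 and from 74.9 to 114, with no overlap and a change of -1.08 ± 0.098 (adjusted p = 3.29e-12). F11 was at -0.86 ± 0.17 (adjusted p = 4.37e-05). Mbl2, at 317 to 479 CPM and 566 to 958, rose by 0.83 ± 0.1 with no overlap, and C2, at 58.9 to 71.7 and 79 to 108, by 0.48 ± 0.072, also with no overlap. C3 rose by 0.54 ± 0.1.

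Here C6 was called lower, at 104 to 342 CPM (median 242) against 80.4 to 194 (median 121), a change of -0.81 ± 0.21 (adjusted p = 0.00123). Fga, Fgb and Fgg were at -0.49 ± 0.11, -0.53 ± 0.095 and -0.46 ± 0.097, Proz at -0.63 ± 0.089, Mbl1 at -0.59 ± 0.091 and Cpb2 at -0.44 ± 0.054. C9, the pore-forming protein, rose by 0.51 ± 0.11. In the same comparison 6 of 8 Kupffer cell markers and 7 of 8 endothelial markers were lower, with summed Kupffer cell ranges of 92.8 to 431 CPM and 79.4 to 244. C1qa, C1qb and C1qc, which Kupffer cells express, were at -0.57 ± 0.18, -0.58 ± 0.19 and -0.48 ± 0.2, and other complement genes had 0 rises and 14 falls of 28. The part of these cells was not tested.

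Given to Prkar1a KD livers, Gcgr mAb moved nothing that could be called. By edgeR 0 members and 0 genes in all were called, so the share of all tested genes was 0% higher and 0% lower. At an unadjusted p below 0.05, 2 members and 846 genes passed. For the 5 members that rose with the antibody in Control AAV livers, the changes here were 0.02 ± 0.21 (C6), 0.09 ± 0.2 (C8b), 0.14 ± 0.055 (Kng1), -0.02 ± 0.071 (C2) and -0.03 ± 0.048 (Cfb).

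The difference between the antibody's effect in the 2 backgrounds was tested as an interaction. Across Control AAV with Control mAb, Control AAV with Gcgr mAb, Prkar1a KD with Control mAb and Prkar1a KD with Gcgr mAb, the medians of C2 were 51.7, 66.7, 93 and 91.6 CPM. Those of Cfb were 783, 879, 822 and 804, with ranges of 735 to 832, 804 to 974, 776 to 942 and 718 to 909. C2 was called at -0.34 ± 0.1 (adjusted p = 0.046; 0.0239 to 0.0667 over 10 alternatives) and Cfb at -0.23 ± 0.068 (adjusted p = 0.0482; 0.0104 to 0.0968 over 10). Of all tested genes, 2.74% were called higher and 1.34% lower. C6 had the larger difference, -0.9 ± 0.29, and missed the threshold (adjusted p = 0.071), as did C8b at -0.77 ± 0.28 (adjusted p = 0.105). C2 and Cfb were at the edge: neither was called with the replicate number as a block (adjusted p = 0.0577 and 0.0684) or without the filter on low counts.

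PKA KD and Prkar1a KD lower and raise PKA, per the series, and share no library. Called in both were 11 members, of which 7 moved the same way and 4 in opposite ways (36.4%). Over all genes tested in both experiments, 2689 were called in both and 51.6% of them moved in opposite ways. The 7 were C2 (1.07 and 0.82), C8b (1.28 and 1), C8g (-0.93 and -0.56), Klkb1 (-0.68 and -0.44), Fga (-0.44 and -0.25), Fgg (-0.46 and -0.24) and Pros1 (0.42 and 0.39). The 4 were F13b (0.65 and -1), Proz (0.34 and -0.52), Proc (0.28 and -0.22) and F2 (-0.24 and 0.15). No test was made of the 2 shares.

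Within groups, terminal complement genes varied together, apart from most pairs with C8g in the second experiment. The standard deviation within groups on the log2 scale, pooled over the first experiment, was 0.821 for C8b, 0.654 for C6, 0.591 for C9 and 0.554 for C8a, against a median of 0.266 over the 39. Deviations from group means were correlated over the 15 pairs of Hc, C6, C8a, C8b, C8g and C9 in each experiment. C8a and C8b had a Pearson r of 0.94 (Spearman 0.95) over 50 libraries and of 0.75 (0.82) over 40 (permutation adjusted p = 1.87e-05 for both, from 1e-05, the smallest p that 100000 resamples can give), and without the 2 farthest libraries r was 0.94 and 0.81. Of the 30 pairs, 15 in the first experiment and 11 in the second passed an adjusted p of 0.05 by Pearson, and 15 and 10 by Spearman. With C8g, all 5 pairs passed in the first experiment (Pearson r from 0.34 with C9 to 0.54 with C8b). In the second, r was -0.03 with C8b (permutation adjusted p = 0.877), -0.1 with C8a, -0.22 with Hc and 0.14 with C6, none of which passed, and 0.46 with C9, which did (permutation adjusted p = 0.00836; 0.125 by Spearman). The pairs share libraries, so they are not independent. Pairs of other genes were not correlated, so whether such values are particular to these genes was not tested.

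**Figure D5:**
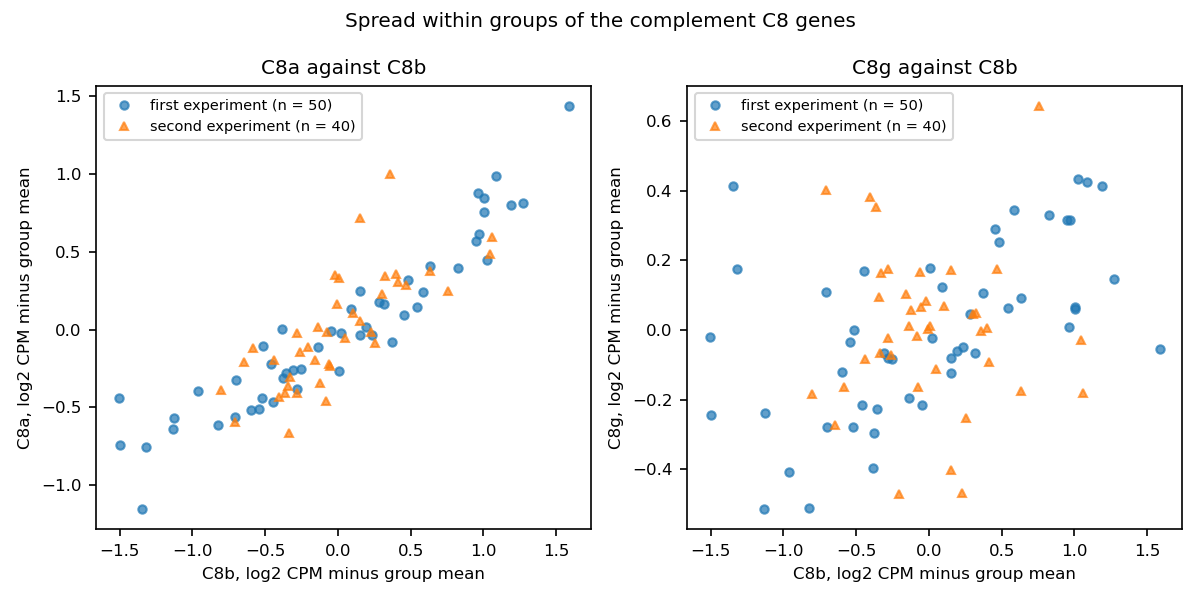
Log2 CPM minus the group mean of C8a (left) and C8g (right) against C8b, 1 point per library, circles for the 50 libraries of the first experiment and triangles for the 40 of the second. C8a follows C8b (r = 0.94 and 0.75), and C8g does so less (r = 0.54 and -0.03).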

How the data were processed

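PolyA RNA from mouse liver was sequenced as strand-specific libraries amplified by PCR, per the labels' protocols. The authors deposited expected counts per Entrez gene, estimated counts that need not be whole, in 1 table per experiment. The submitters' processing notes name bcl2fastq 2.17, FastQC, GRCm38 and mm10; no aligner or counter is named in them. Each column was matched to its sample by name, and the 9 groups of 10 come from the labels.

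Counts were rounded to whole numbers. Genes were filtered with filterByExpr (minimum count 10), scaled by TMM and fitted in edgeR 4.0.16 (R 4.3.3) with the robust quasi-likelihood F test, 1 model per experiment over all its groups, with no covariate. The SE is the log2 fold change divided by the square root of F. Benjamini-Hochberg adjustment ran over all tested genes, and 13 comparisons were made. Values in CPM are TMM scaled and were computed here. The test was checked on simulated data in which all genes had the same relative spread and varied independently. That check cannot show how the test does for genes of larger or shared spread, as the terminal complement genes have. Library totals ran from 8.9 M to 33.7 M counts and were lower in the second experiment, where low genes thus had fewer counts. The lowest count of a member in a library there was 194.

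The members, the lists of related genes and markers, and the tests were chosen with earlier results of these data known. Values per library and full statistics are given for members called with a log2 fold change of at least 0.58 in size in a comparison with a control group or in the second experiment, for the 3 largest rises and falls of each comparison with a control, and for members called in the interaction. Related lists are named by up to 3 rises and 3 falls. Some genes of these lists are not reported here. Alternatives were RLE size factors, no filter, the replicate number as a block, only the 2 groups compared, limma-voom (limma 3.58.1) and DESeq2 1.42.0; 12 fits leaving out 1 library each were chosen after seeing the data. Promoters and neighbours are from RefSeq and exon overlaps from GENCODE, both on GRCm38.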

Additional observations from a re-analysis of the deposited data

Results flagged for a closer look

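Each member was checked in each group for a library standing far from the other 9, by the gap to its nearest neighbour divided by the range (above Dixon's critical value for 10 samples). Of 351 such checks 45 passed, in 16 libraries. About 1 in 20 would pass for independent, normally distributed values. CPM of members from the same library are not independent, and no rate over all genes was computed. The count of 45 thus cannot be set against chance. All values are CPM, and no explanation was tested.

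Library 7 of Epac2 KD passed this check as the highest for 8 members: C3 at 16700, C4b at 3450, Vtn at 3380, Fga at 11000, Fgb at 10200, Fgg at 5740, Pros1 at 56.9 and Cpb2 at 299. In the same group, library 9 was lowest for Masp2 at 210 and library 5 for F5 at 550. Library 8 of Gnas KD was highest for C3 at 14600, C4b at 3220, Cfb at 2110, Vtn at 3370, F7 at 118 and Kng1 at 2660. Library 3 of PKA KD was highest for C3 at 10700, C9 at 708, Serping1 at 1110, Fgb at 4860, Fgg at 2580, F9 at 128, F10 at 537 and Cpb2 at 307. Library 5 of PKA KD was lowest for Masp2 at 164 and Plg at 1870. Library 8 of Gcgr KD was highest for Kng1 at 2400 and Pros1 at 50.6, and library 7 of Control for C8b at 309.

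In the second experiment, library 2 of Control AAV with Gcgr mAb was lowest for Masp2 at 137 and Cpb2 at 234, and library 3 was highest for C8g at 425 and Proc at 452. With Prkar1a KD and Control mAb, library 1 was highest for Hc at 1300, C8a at 665, C9 at 538, Fga at 3500 and Fgg at 2280, library 4 was highest for Cfb at 942, and library 9 was lowest for Mbl2 at 535. With Prkar1a KD and Gcgr mAb, library 7 was lowest for C8g at 153, C9 at 241 and Serpinc1 at 1350, library 3 was highest for Mbl2 at 958, and library 2 for Kng1 at 1250.

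The interaction of Prkar1a KD and Gcgr mAb was called in edgeR for C2 at -0.34 and Cfb at -0.225 on the log2 scale. Both were at the edge of the threshold, and each was lost in 5 of 10 alternatives. The adjusted p ran up to 0.0667 for C2 and 0.0968 for Cfb in those fits.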

How the results depend on the processing

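Of 118 calls of members, 93 held under every alternative run, 25 were lost under at least 1 and 0 reversed. Counts of called members that moved by over 1.5 times were these. For Gcgr KD against Control the count was 0, and 3 with only the 2 groups fitted. For Gnas KD minus Gcgr KD it was 3, and 5 with DESeq2. For the interaction it was 2, against 1 with RLE size factors, 0 without the filter and 0 with the replicate block. Leaving out single libraries, chosen after seeing the data, gave 3 to 6 members for Gnas KD minus Gcgr KD (6 without Gnas KD library 1), 3 to 7 for Gnas KD against Control, where it was 5 (3 without Gnas KD library 8), 5 to 10 for Gcgr mAb in Control AAV, where it was 5 (10 without library 2 of that group) and 0 to 2 for the interaction (0 without library 9 of Prkar1a KD with Control mAb, and 1 without library 1 of that group, library 10 of Control AAV with Control mAb or library 2 of Prkar1a KD with Gcgr mAb). The cause was not tested.

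Replicate numbers did not pair the libraries: same-numbered libraries had correlations of deviations from -0.39 to 0.57 (median 0.04) in the first experiment and from -0.32 to 0.4 (median 0) in the second, and the best match had the same number in 29 of 200 and 15 of 120 checks. With the replicate block 5 of the 118 calls were lost: Masp1 with Gnas KD (adjusted p = 0.0569), Mbl1 in PKA KD minus Gnas KD (0.0572), Masp2 with Prkar1a KD and Gcgr mAb (0.0581), and C2 and Cfb in the interaction (0.0577 and 0.0684). The interaction could not be fitted with only 2 groups.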
